A study of Mus musculus with 14 samples.

Results

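The aminoacyl-tRNA synthetases are the enzymes that join each amino acid to its tRNA, and their genes form 2 families in the mouse. The 35 genes described here were chosen by name: 20 that encode cytosolic enzymes or their subunits and 15 that encode mitochondrial enzymes (symbols ending in 2), out of 14248 genes with a value in at least 1 library. No measured value entered the choice, although the families were picked with earlier results of these data known. The mitochondrial leucyl enzyme gene Lars2 was left out of the list. All 35 genes passed the filter on low values in each assay.

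Cytosolic synthetases feed the ribosomes that translate nuclear mRNAs, and 8 of them (encoded by Dars, Eprs, Iars, Kars, Lars, Mars, Qars and Rars) sit together in a multi-synthetase complex on the scaffold proteins Aimp1, Aimp2 and Eef1e1. Eprs encodes a fused glutamyl and prolyl enzyme, Farsa and Farsb encode the subunits of the phenylalanyl enzyme, and Gars and Kars also supply mitochondria with their enzyme. Mitochondrial synthetases are made in the cytosol from nuclear mRNAs, are imported, and charge the tRNAs used to translate the few mRNAs of the mitochondrial genome. Many cytosolic synthetase genes, unlike most mitochondrial ones, are known to be activated by Atf4, which drives the cell's response to amino acid shortage.

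The study measured ribosome-protected fragments (Ribo-seq, 25 to 35 nt) and fragments of RNA (RNA-seq, 40 to 60 nt) in mouse embryonic fibroblasts of the strain C57BL/6J, and its title names translation of mRNA that does not depend on eIF4F, the complex that binds the mRNA cap. Each assay had 2 libraries of cells with a scrambled control (Scram), 2 with knockdown of Mettl3 (shMETTL3), the methyltransferase that writes N6-methyladenosine in mRNA, 2 with knockdown of Abcf1 (shABCF1), an ABC-family ATPase linked to translation initiation, and 1 of cells given Torin1, an inhibitor of the kinase mTOR, at 250 nM for 2 h. The protocol gives DMSO as the alternative to Torin1, cells were washed and lysed with 100 µg/ml cycloheximide, which holds ribosomes on the mRNA, and the labels do not say whether the Torin1 cells carried a hairpin, how many clones or hairpins were used, or whether replicates were separate cultures. The p values therefore measure the spread between these libraries, which may be technical.

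Some promoters of cytosolic genes on the Atf4 list hold a motif to which Atf4 binds. That list names synthetase genes already known as Atf4 targets, so the motif in their promoters is no separate evidence. The 300-base windows from 250 bases before to 50 bases after each RefSeq start (GRCm38.p6) were searched on both strands for TGATGNAAN, the form of the C/EBP-ATF response element to which Atf4 binds with C/EBP proteins (NTTNCATCA on the other strand). The windows of 25 of the 35 genes were used. No RefSeq window was matched for Cars, Hars, Lars, Nars, Rars, Vars, Wars, Hars2 and Pars2. The motif stood in a window of 4 of the 7 cytosolic genes on the Atf4 list that were used, of 0 of 5 other cytosolic genes and of 0 of 13 mitochondrial genes. Of all 32817 windows 3.96% held it. The matches are printed to show the letters found and their surroundings. Each line is the gene's own strand, 5′ to 3′, with the motif in capitals.
Gars, chr6:55037960-55037988, plus strand: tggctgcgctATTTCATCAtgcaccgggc
Iars, chr13:49682126-49682154, plus strand: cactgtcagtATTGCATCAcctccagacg
Tars, chr15:11399656-11399684, minus strand: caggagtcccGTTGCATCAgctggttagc
Yars, chr4:129189896-129189924, plus strand: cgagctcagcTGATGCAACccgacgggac
In Gars, Iars and Tars the match reads on the antisense strand, and in Yars on the sense strand. The windows of Eprs, Mars and Sars, which are also on the Atf4 list, held no match. A match is a stretch of letters and was not tested as a binding site.

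Libraries correlated by replicate more than by treatment: the replicate 1 libraries formed 1 set, and those of replicate 2 formed another together with Torin1. Correlations across genes, which are not independent replicates, were 0.86 to 0.97 within sets and 0.58 to 0.67 between sets in RNA-seq. In Ribo-seq they were 0.92 to 0.98 against 0.65 to 0.71. They were taken on the same transcript of each gene in all libraries. The libraries of the first set list 14002 to 16727 transcripts and those of the second 9203 to 10816. The part of this difference in the correlations was not tested. The depth implied by the values was 1197860 to 3802703 reads for RNA-seq libraries, and for Ribo-seq 1764404 to 5155237. In the RNA-seq of the second set 35.36% to 41.61% of the reads were on Lars2 and 8.21% to 10.85% on Tmem38b, so fewer reads were left there for other genes. The 9 fibroblast markers were listed in every RNA-seq library, with a summed level of 2365 to 5413 RPKM (reads per kilobase of transcript, scaled to the reads of the library). The summed markers of macrophages stayed at or below 7.72 RPKM, those of endothelium at or below 2.16, of neurons at or below 8.28 and of muscle at or below 0.97. The epithelial list reached 25.0 to 82.5 RPKM. Of its 4 genes Epcam was not listed, while 3 (Cdh1, Krt8 and Krt18) were listed in at least 1 library and 1 in every library. Mettl3 had a Ribo-seq difference of -1.91 (SE 0.45) in its own knockdown (log2). Its RNA-seq difference there was -0.898 (SE 0.419), with -1.496 in replicate 1 and only -0.299 in replicate 2. Abcf1 had an RNA-seq difference of -1.37 (SE 0.36) and a Ribo-seq difference of -1.235 (SE 0.615) in its own knockdown. Each gene was lower in both replicates of both assays, and neither passed the test (limma, adjusted p = 1). Because of the sets, differences are given against Scram of the same replicate, and Torin1 is set against Scram replicate 2. Unless stated, SE and limma p values are from the fit without the replicate number as a block. Their spread therefore includes the difference between the sets, and they are not errors of a paired difference.

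In the first set, reads of 5 cytosolic genes sat on a transcript other than the 1 kept for the gene. The kept transcript held 0.7% of the gene's RPKM there for Farsa, 0.2% for Kars, 3.1% for Qars, 0.9% for Sars and 0.1% for Wars, against 100.0% in the second set. For Tars2 the share was 23.6%. Levels are therefore given as the sum over a gene's transcripts. A sum does not bring transcripts to the same length, which limits comparison of levels between the sets. The main transcript of the first and second set had 3570 and 1866 bases for Sars, and 2831 and 1824 for Wars. For Tars2 in Ribo-seq the coding parts had 1272 and 2172 bases. A difference given for a single gene is that of the kept transcript. For Farsa, Kars, Qars, Sars, Wars and Tars2 it comes from the sums unless stated. Counts and medians over a family use the kept transcript of every gene, and for the knockdowns the counts from sums are given beside them. RPKM levels are as deposited, and differences are on the scale of the fit, log2(RPKM scaled to the library median + 1). Sequence shared with other genes also limits some values. Of the 28-base words of the kept transcript of Aars, 22.7% occur in Exosc6, whose exons overlap it on the same strand by 1326 bases, and 19.7% of those of Iars occur in other genes. The exons of Hars and Hars2 overlap on opposite strands by 195 bases, and those of Iars2 overlap the antisense gene Rab3gap2 over 37.2% of the transcript. Use of strand in the counting is not stated, so levels of these genes are uncertain.

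Cytosolic synthetase mRNAs were about an order of magnitude more abundant than the mitochondrial ones in control cells. The median RNA-seq level of the 20 cytosolic genes was 69.7 RPKM in Scram replicate 1 and 40.5 in Scram replicate 2. The median of the 15 mitochondrial genes was 6.12 and 4.16 RPKM. In Ribo-seq the medians were 86.3 and 105 RPKM for cytosolic genes and 15.2 and 10.5 for mitochondrial genes. In RNA-seq the families overlapped little. The mitochondrial gene with the highest mean there, Yars2 (25.6 and 8.85 RPKM), lay near the lowest cytosolic ones. These were Cars (24.9 and 17.6) and Wars (26.8 and 16.3). The overlap was larger in Ribo-seq, where the mean of Yars2 (65.4 RPKM) exceeded those of Eprs (57.0), Wars, Lars, Qars, Cars, Iars and Mars. In replicate 2 of Ribo-seq Yars2 (43.3) exceeded only Mars (36.0).

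**Figure D1:**
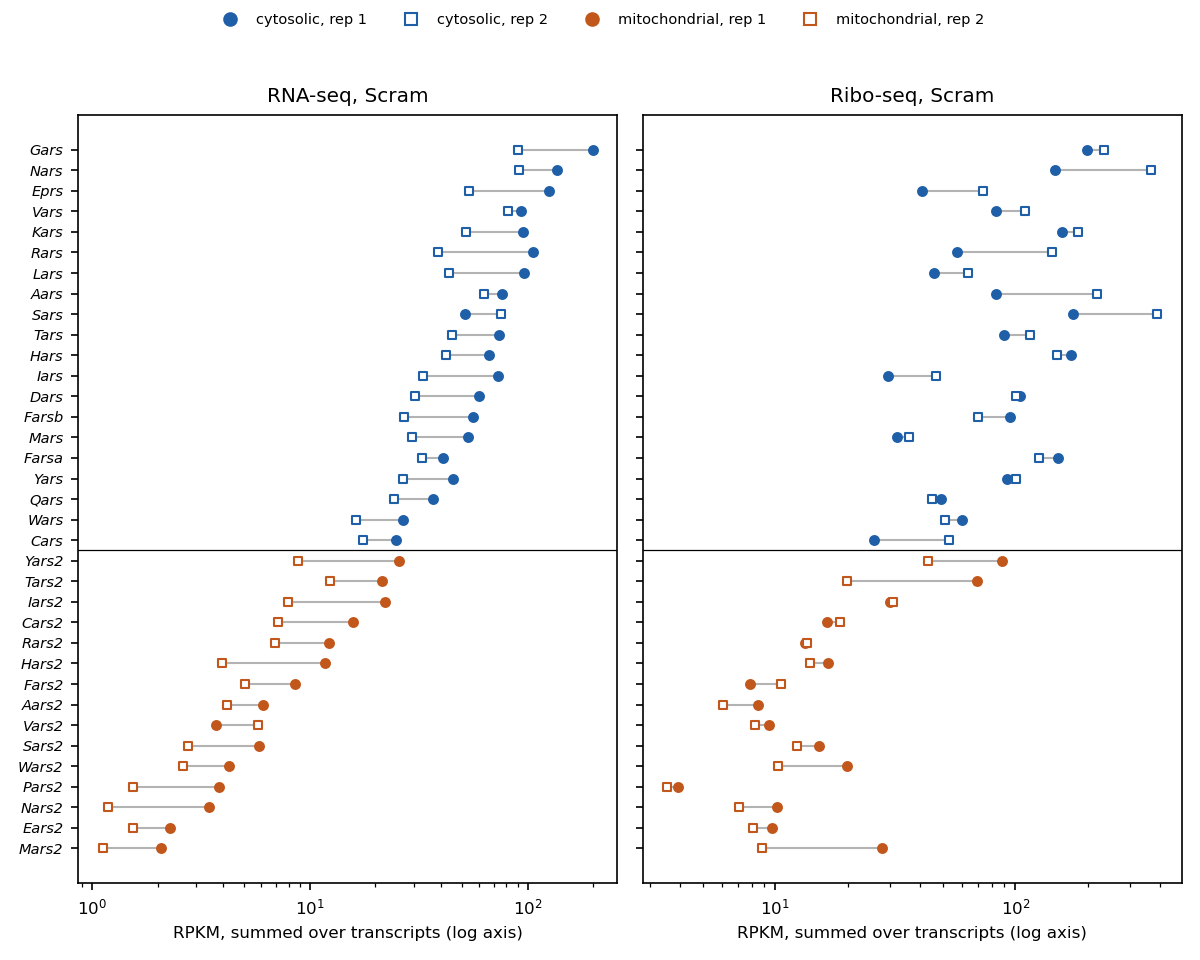
Level of each of the 35 genes in the Scram libraries, in RPKM summed over transcripts on a log axis, for RNA-seq (left) and Ribo-seq (right). Filled circles are replicate 1, open squares replicate 2, and a grey line joins them; the cytosolic genes lie to the right of most mitochondrial genes in both assays.

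Among cytosolic genes Gars, which encodes the glycyl enzyme, and Nars, the asparaginyl enzyme gene, had the highest RNA-seq levels. Gars stood at 199.6 and 90.4 RPKM and Nars at 136 and 90.9, so they changed places between replicates and were not separated by their spread. Below them Eprs had 125 and 53.7, Vars (valyl) 93.8 and 81.5, and Kars (lysyl) 94.9 and 52.4. These 3 genes also changed order between replicates. Sars, the seryl enzyme gene, had the 15th RNA-seq level of the 20 in replicate 1 and the 4th in replicate 2. Its main transcript had 3570 bases in replicate 1 and 1866 in replicate 2, so these ranks do not rest on the same length. In Ribo-seq Sars had the highest mean, with 173 and 390.1 RPKM, followed by Nars with 145 and 367 and Gars with 199 and 233. Gars was first in replicate 1 and Sars in replicate 2, so these 3 were not separated by their spread. The lowest mean cytosolic Ribo-seq levels were those of Mars (methionyl), at 32.1 and 36.0 RPKM, and Iars (isoleucyl), at 29.4 and 46.8.

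Among mitochondrial genes Yars2 (tyrosyl) led Ribo-seq in both replicates with 87.4 and 43.3 RPKM, and Tars2 (threonyl), with 69.4 and 19.9, and Iars2 (isoleucyl), with 30.1 and 31.0, changed places behind it. The same 3 genes held the first 3 places in RNA-seq. Pars2, the prolyl enzyme gene, was lowest in Ribo-seq in both replicates, at 3.95 and 3.55 RPKM. Mars2, the methionyl enzyme gene, was lowest in RNA-seq in both, at 2.07 and 1.12 RPKM, and stood 4th and 10th in Ribo-seq. Its transcript has 11294 bases, of which 1761 are coding. RPKM implied whole reads with the whole transcript as the length in RNA-seq and the coding part in Ribo-seq. By RNA-seq reads Mars2 was not lowest, with 40 and 48 in Scram against 8 and 12 for Ears2. Read numbers set the precision. The 15 cytosolic genes with 1 main transcript had 51 to 1384 RNA-seq reads per library (median 232) and 181 to 2996 Ribo-seq reads (median 678). The 14 such mitochondrial genes had 0 to 196 RNA-seq reads (median 22, and under 20 in 40 of 98 values) and 9 to 593 Ribo-seq reads (median 72).

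The ratio of Ribo-seq to RNA-seq level in Scram was taken as the difference of log2(scaled RPKM + 1) between the assays. Each assay was scaled on its own, so the ratio of a gene can be read only against other genes. The median over all 9806 genes tested in both assays was 1.24 in replicate 1 and 1.26 in replicate 2. The mitochondrial median was 1.46 and 1.37, and the cytosolic median 0.62 and 1.28, so the medians were farther apart in replicate 1 than in replicate 2. The 5 lowest ratios in replicate 1 belonged to genes of the multi-synthetase complex. Eprs had -1.16 and 0.15 in the replicates, Iars -0.86 and 0.20, Lars (leucyl) -0.63 and 0.24, Rars (arginyl) -0.45 and 1.56, and Mars -0.29 and -0.01. Of these Rars did not stay low in replicate 2. A low ratio was not shared by all genes of the complex. Dars (1.22 and 1.39) and Kars (1.14 and 1.48) lay above the cytosolic median in both replicates, and Qars had 0.81 and 0.57. Vars, which is outside the complex, was low too, at 0.25 and 0.12. Farsa (2.28 and 1.62) and Sars (2.15 and 2.06) were high among cytosolic genes in both replicates, and Mars2 (3.5 and 2.08) was the highest mitochondrial gene in both. The ratio of Mars2 depends on its annotated length of 11294 bases, over which its RNA-seq reads were spread. That of Sars in replicate 1 depends on the 3570 bases of the transcript mainly listed there, against 1866 in replicate 2. The 2 ratios of Sars are therefore not on the same length. The difference between the families was not tested.

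In ABCF1 knockdown most cytosolic synthetase genes had lower RNA-seq values than Scram of the same replicate, and the mitochondrial genes shared no direction, but no gene passed the test. Of the 20 cytosolic genes 13 were lower in both replicates and 1 was higher in both, where 29.0% of the 9021 genes tested were lower in both and 21.8% higher. With sums over transcripts 16 were lower and 1 higher, against 30.4% and 22.2% of all genes. Of the 15 mitochondrial genes 2 were lower and 2 higher in both replicates. The median log2 difference was -0.30 for cytosolic genes (-0.45 in replicate 1 and -0.17 in replicate 2), 0.03 for mitochondrial genes (-0.24 and 0.41) and -0.05 for all genes. The levels are relative to each library's median gene. In these bulk samples fewer cells of a type and less RNA per cell cannot be told apart. Of all 9021 genes 0% were called (limma, with 79 genes and 0 of the 35 at an unadjusted p under 0.05). With the replicate number as a block 0% were called too, and Eprs, Gars, Iars, Mars and Ears2 had an unadjusted p under 0.05 (lowest adjusted p = 0.704, limma). With quantile normalization the cytosolic median was -0.27, against -0.01 for all genes. With no scaling it was -0.46, against -0.165 for all genes. Leaving out ABCF1 replicate 2 put the cytosolic median at -0.66, and leaving out ABCF1 replicate 1 put it at -0.12.

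The glycyl gene Gars (chr6:55038007-55079500, GRCm38, plus strand) had the largest mean difference of the cytosolic genes. Its RNA-seq level was 199.6 and 90.4 RPKM in Scram and 102 and 49.7 in ABCF1 knockdown. The difference was -0.78 (SE 0.32, log2), with -1.03 and -0.52 in the replicates (limma, adjusted p = 1). With the replicate number as a block the SE was 0.20 (limma, unadjusted p = 0.0095, adjusted p = 0.704). The methionyl gene Mars (chr10:127296222-127311786, minus strand) had 53.3 and 29.4 RPKM in Scram and 31.0 and 16.45 in the knockdown, a difference of -0.65 (SE 0.26). Iars (chr13:49682100-49734267, plus strand) had 73.2 and 33.0 RPKM against 42.0 and 20.1, a difference of -0.61 (SE 0.33). On the scale of the fit the groups did not overlap in these 3 genes. Gars stood at 7.31 and 6.71 in Scram and 6.28 and 6.20 in the knockdown, Mars at 5.43 and 5.12 against 4.60 and 4.64, and Iars at 5.88 and 5.29 against 5.03 and 4.92. Eprs had 125 and 53.7 RPKM in Scram and 82.2 and 29.5 in the knockdown. Qars, the glutaminyl gene, was the 1 cytosolic gene higher in both replicates, by 0.12 and 0.14. Among mitochondrial genes Yars2 had -0.21 (SE 0.46) and Wars2, the tryptophanyl gene, 0.21 (SE 0.41).

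Of the 11 cytosolic genes on the Atf4 list 10 were lower in both replicates (11 with sums over transcripts), where 29.0% of all genes were lower, with a median of -0.39 (-0.62 and -0.36). Of the 9 other cytosolic genes 3 were lower in both (5 with sums), with a median of -0.20 (-0.40 and 0.00). The difference between these groups was not tested, and the list was fixed with earlier results known. Genes of the complex had 4 of 8 lower in both replicates and the free cytosolic enzymes 9 of 12. With sums Rars of the complex and Farsa and Yars of the free enzymes were lower in both as well. Of 20 genes on a list of Atf4 and its targets that are no synthetases, 18 were tested, 12 were lower in both replicates and 3 higher (29.0% and 21.8% of all genes), with a median of -0.54, and 0 passed the test. Atf4 itself had an RNA-seq difference of -0.54 (SE 0.23). The amino acid transporter gene Slc7a5 differed by -0.88 (SE 0.30) and the serine synthesis gene Phgdh by -0.91 (SE 0.71). Xpot, which exports tRNA from the nucleus, differed by -0.83 (SE 0.32), and the stress gene Nupr1 by 1.28 (SE 0.74). The Ribo-seq values did not all go the same way. There Atf4 differed by 0.31 (SE 0.53), with 1.21 and -0.59 in the replicates. Slc7a5 differed by 0.29 (SE 0.37), Phgdh by -0.004 (SE 1.055), Xpot by -0.56 (SE 0.255) and Nupr1 by 2.01 (SE 2.64) in Ribo-seq.

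**Figure D2:**
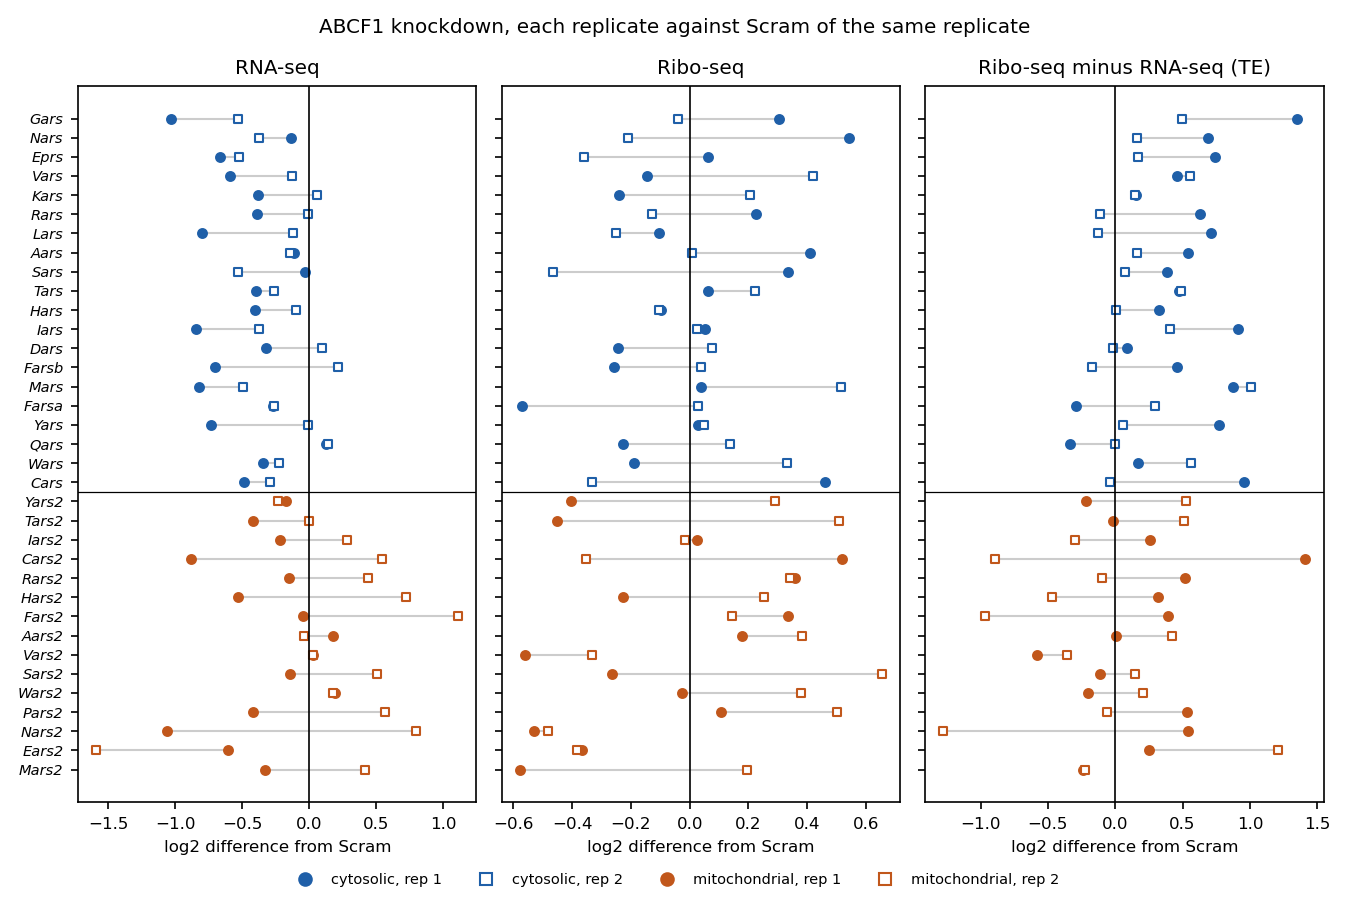
Log2 difference of ABCF1 knockdown from Scram of the same replicate for each gene, from sums over transcripts, in RNA-seq (left), Ribo-seq (middle) and Ribo-seq minus RNA-seq (right). Filled circles are replicate 1 and open squares replicate 2; in RNA-seq 16 of 20 cytosolic genes lie left of 0 in both replicates, and in Ribo-seq the genes lie on both sides of 0. Ears2 was not listed in RNA-seq of ABCF1 replicate 2 and is drawn at 0 RPKM there.

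The gap between the families within each RNA-seq library gives the same contrast without a reference library. The median cytosolic level minus the median mitochondrial level (log2 of scaled RPKM plus 1) was 3.24 and 3.06 in Scram and 2.60 and 2.51 in ABCF1 knockdown. It was 3.21 and 2.93 in METTL3 knockdown and 2.92 with Torin1, so the ABCF1 libraries lay below the 5 others. The gap was smaller than in Scram by a similar amount in both replicates (-0.64 and -0.55), but its parts differed. In replicate 1 the cytosolic median was 5.68 in Scram and 5.21 in the knockdown, and the mitochondrial one 2.44 and 2.62. In replicate 2 they were 5.75 and 5.63, and 2.68 and 3.12. The ABCF1 replicate 2 library also had the highest share of reads on Lars2, 41.61% against 35.36% in Scram replicate 2, and its part in the result was not tested. In Ribo-seq the gap was 2.43 and 3.21 in Scram and 2.50 and 3.0 in ABCF1 knockdown, which overlap.

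**Figure D3:**
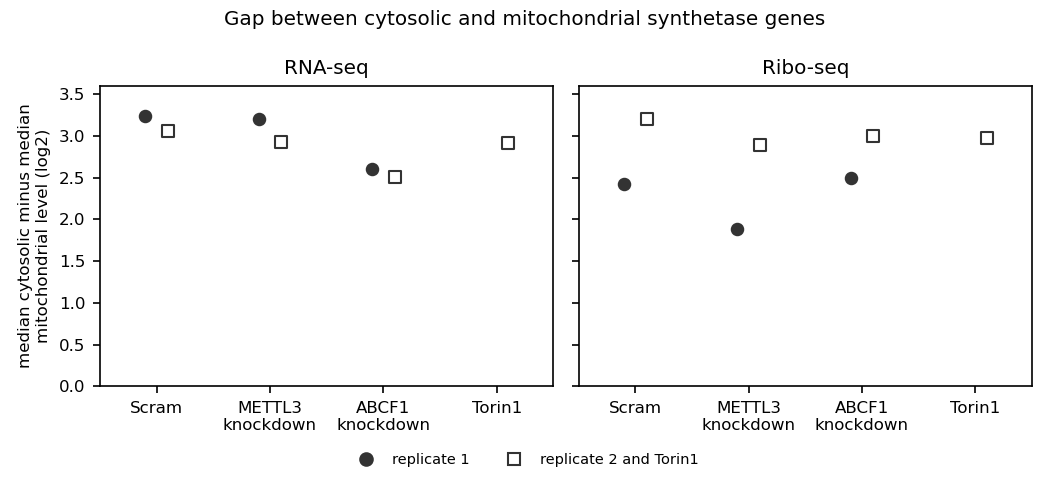
Median level of the 20 cytosolic genes minus that of the 15 mitochondrial genes in each library (log2 of scaled RPKM plus 1, summed over transcripts), for RNA-seq (left) and Ribo-seq (right). Filled circles are replicate 1 and open squares replicate 2 and Torin1; both ABCF1 knockdown libraries lie lowest in RNA-seq, at 2.60 and 2.51, and the METTL3 knockdown libraries lie below Scram of the same replicate in Ribo-seq.

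Ribosome-protected fragments of the cytosolic genes lay near their Scram level. The Ribo-seq median difference in ABCF1 knockdown was 0.05 for cytosolic genes, 0.08 for mitochondrial genes and 0.00 for all genes. Among cytosolic genes 6 were higher and 3 lower in both replicates, where 25.3% of 9534 genes were higher and 23.0% lower. With sums 5 were higher and 2 lower, against 27.8% and 24.6%. Gars had 199 and 233 RPKM in Scram and 265 and 224 in the knockdown. Mars had 32.1 and 36.0 RPKM against 35.6 and 51.1, a difference of 0.27 (SE 0.27), and Aars, the alanyl gene, differed by 0.20 (SE 0.55). Sars, from its sums, differed by -0.06 (SE 0.56), with replicates of opposite sign. Nars2 (asparaginyl) differed by -0.51 (SE 0.50) and Vars2 (valyl) by -0.46 (SE 0.36), each lower in both replicates. No gene passed (limma, 0% called, 106 genes and 0 of the 35 at an unadjusted p under 0.05).

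Translational efficiency (TE), the Ribo-seq difference minus the RNA-seq difference, uses the same RNA-seq libraries, so it repeats the lower RNA-seq values and is no separate evidence. Of the 20 cytosolic genes 13 had a higher TE in both replicates and 0 a lower one, against 30.9% and 20.3% of 9428 genes, and the median was 0.38 against 0.07 for all genes. With sums the counts were again 13 and 0, against 32.2% and 21.1%. Mars had the lowest p, with a TE difference of 0.94 (SE 0.35), 0.87 and 1.01 in the replicates (limma, unadjusted p = 0.0287, adjusted p = 1). Gars had 0.92 (SE 0.42) and Iars 0.66 (SE 0.44). The mitochondrial median was 0.02, with 3 genes higher and 2 lower in both replicates (2 and 2 with sums). Vars2 had -0.47 (SE 0.66), and Tars2, from its sums, 0.25 (SE 0.76), with replicates that differed in sign. No gene passed (0% called, 37 genes at an unadjusted p under 0.05).

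In METTL3 knockdown the cytosolic genes lay near the median of all genes, and more mitochondrial genes were higher than lower in both replicates. In RNA-seq 6 of 15 mitochondrial genes were higher in both replicates and 0 lower, where 25.4% of genes were higher and 26.1% lower. Their median was 0.15 (0.15 and 0.24 in the replicates). Of the 20 cytosolic genes 3 were higher and 7 lower, with a median of -0.07, against -0.01 for all genes. With sums 3 cytosolic genes were higher and 8 lower, and 6 and 0 mitochondrial ones, against 26.0% and 27.7%. In Ribo-seq 8 of 15 mitochondrial genes were higher in both replicates and 1 lower, where 27.8% of genes were higher and 25.2% lower. Of the cytosolic genes 3 were higher and 6 lower. With sums 8 mitochondrial genes were higher and 1 lower, and 5 and 5 cytosolic ones, against 31.0% and 25.8%. The mitochondrial median was 0.21 (0.06 and 0.38), that of the cytosolic genes 0.01 and that of all genes 0.02. In TE 7 cytosolic genes were higher and 2 lower in both replicates, and 6 and 3 mitochondrial genes, against 29.2% and 23.6% of genes. With sums these were 6 and 3, and 7 and 3, against 31.6% and 23.1%. No gene passed in RNA-seq, Ribo-seq or TE (limma without a block, 0% called in each, with 62, 243 and 46 genes and 0 of the 35 at an unadjusted p under 0.05). With the block 0.0105% were called in Ribo-seq, with 0 of the 35.

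The phenylalanyl gene Fars2 (chr13:36117412-36537593, plus strand) had the largest mean Ribo-seq difference of the mitochondrial genes with 1 main transcript that were the same way in both replicates. It stood at 7.87 and 10.5 RPKM in Scram and 16.3 and 13.96 in METTL3 knockdown, so both knockdown libraries lay above both control libraries. The difference was 0.71 (SE 0.32), with 0.96 and 0.47 in the replicates (limma, adjusted p = 1, and adjusted p = 0.294 with the replicate block). Its RNA-seq difference was 0.38 (SE 0.44). Cars2, the cysteinyl gene (chr8:11513977-11550783, minus strand), had 16.4 and 18.6 RPKM in Scram and 22.4 and 26.7 in the knockdown in Ribo-seq, a difference of 0.50 (SE 0.42). Its exons overlap the opposite-strand gene Naxd over 22.2% of the transcript. Hars2 (histidyl) had 16.5 and 14.01 RPKM in Scram and 20.4 and 21.0 in the knockdown. Nars2 had an RNA-seq difference of 0.46 (SE 0.60), counted from 12 to 20 reads per library, and a TE difference of -0.77 (SE 0.75). The TE difference of Cars2 was 0.57 (SE 0.62).

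Of the 4 genes that prepare mitochondrial tRNAs alongside these enzymes (Qrsl1, Gatb and Gatc of the amidotransferase that makes glutaminyl-tRNA, and Mtfmt, which formylates initiator methionyl-tRNA), 3 were higher in both replicates in RNA-seq (25.4% of all genes) and 3 in Ribo-seq (27.8%). In RNA-seq Mtfmt differed by 0.69 (SE 0.42) and Gatc by 0.45 (SE 0.39). In Ribo-seq they differed by 0.63 (SE 0.45) and 0.51 (SE 0.63). None of them passed the test.

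Among the cytosolic genes the tryptophanyl gene Wars (chr12:108860034-108893197, minus strand), singled out after its values were seen, had the most negative summed Ribo-seq difference in METTL3 knockdown. It had 60.1 and 50.8 RPKM in Scram, 33.9 and 33.4 in METTL3 knockdown, 56.8 and 63.3 in ABCF1 knockdown and 49.4 with Torin1. Both METTL3 libraries lay below the 5 others. From its sums the difference was -0.64 (SE 0.27), and in RNA-seq -0.33 (SE 0.25) (limma, adjusted p = 1). Gars differed by -0.36 (SE 0.32) in RNA-seq. Farsb had -0.27 (SE 0.34) there and, for ribosome-protected fragments, -0.37 (SE 0.40). Qars, from its sums, differed by -0.36 (SE 0.30) and -0.32 (SE 0.29), lower in both replicates of both assays. Sars, from its sums, differed by -0.14 (SE 0.56) in Ribo-seq, with replicates of opposite sign. The TE differences of Iars (0.32, SE 0.44), Vars (0.33, SE 0.59) and Nars (-0.22, SE 0.62) were smaller than their errors.

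**Figure D4:**
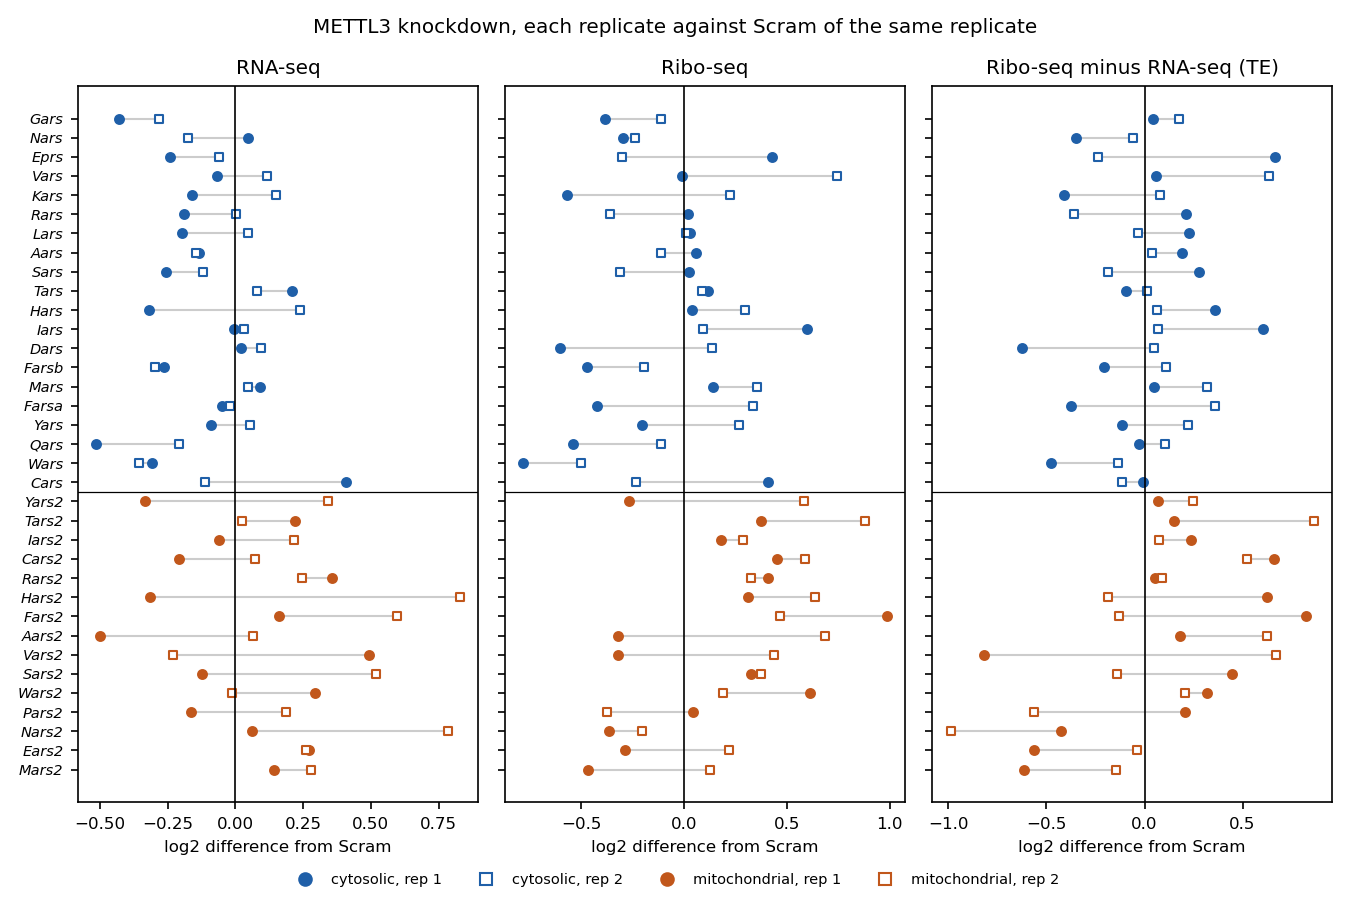
Log2 difference of METTL3 knockdown from Scram of the same replicate for each gene, from sums over transcripts, in RNA-seq (left), Ribo-seq (middle) and Ribo-seq minus RNA-seq (right). Filled circles are replicate 1 and open squares replicate 2; in Ribo-seq 8 of 15 mitochondrial genes lie right of 0 in both replicates, against 31.0% of all genes, and Wars lies left of 0 in both.

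With Torin1 both families stayed near the median of all genes, and Kars had the most negative Ribo-seq difference. Against Scram replicate 2 the cytosolic median was 0.03 in RNA-seq and 0.03 in Ribo-seq, the mitochondrial median was 0.17 in each, and that of all genes was -0.02 and 0.00. In Ribo-seq 3 of 20 cytosolic genes were lower and 3 higher past a threshold of 25% higher or 20% lower, where 27.1% of genes were lower and 25.0% higher by that much. Of the mitochondrial genes 1 was lower and 4 were higher. In RNA-seq 2 cytosolic genes were lower and 1 higher, against 22.2% and 16.0% of genes. In TE 4 cytosolic genes were lower and 3 higher, against 27.5% and 30.8%. With quantile normalization the cytosolic Ribo-seq median was 0.27. The limma fit, which also uses Scram replicate 1, gave a cytosolic Ribo-seq median of 0.49. That median counts Farsa, Kars, Qars, Sars and Wars, whose kept transcript was nearly absent from Scram replicate 1. Their values in that fit ran from 1.43 (Qars) to 3.57 (Farsa). With 1 library per assay these differences have no replicate check. In the fit without a block 0 genes passed (limma, 0% called, 203 genes (RNA-seq), 304 (Ribo-seq) and 254 (TE) at an unadjusted p under 0.05, with 0 of the 35). With the block 0.111% of genes passed in RNA-seq, 1.28% in Ribo-seq and 0.573% in TE, and 0 of the 35.

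The lysyl gene Kars (chr8:111993443-112011266, minus strand) was the cytosolic gene with the lowest Ribo-seq value relative to Scram replicate 2. Its level was 99.4 RPKM with Torin1, and 182, 199.6 and 207 in the Scram, METTL3 and ABCF1 libraries of replicate 2. In RNA-seq it was 45.4 RPKM with Torin1 and 43.6 to 53.1 in the same 3 libraries. On the scale of the fit these were 5.90 with Torin1 and 5.94 to 6.09 in the others. The difference from Scram replicate 2 was -1.08 in Ribo-seq, -0.03 in RNA-seq and -1.05 in TE. With the replicate block the Ribo-seq difference was -1.15 (SE 0.28, limma, adjusted p = 0.157) for the kept transcript and -1.28 for the sum (limma, adjusted p = 0.134). The fit without a block set the Torin1 library also against Scram replicate 1, where the kept transcript of Kars held 0.2% of the gene, and gave 2.63 (SE 5.24). With the sums that fit gave -0.91.

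Qars was lower too, with 34.1 RPKM in Ribo-seq against 45.0, 39.1 and 48.9 in the other replicate 2 libraries, a difference of -0.60 with 0.22 in RNA-seq and -0.82 in TE. Farsb differed by -0.48 in Ribo-seq, with 5.57 on the scale of the fit against 5.86 to 6.10 in the other replicate 2 libraries. Higher Ribo-seq values than in Scram replicate 2 were seen for Lars (0.44), Yars (0.40) and Mars (0.34). Lars had 100.5 RPKM with Torin1 against 52.4 to 63.4 in the other replicate 2 libraries, and Yars 155 against 101 to 114. In RNA-seq Sars differed by 0.41, Wars by -0.37 and Farsa by -0.33. The TE difference of Farsa was 0.57.

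The scaffold genes of the multi-synthetase complex had Ribo-seq values below Scram replicate 2, as Kars and Qars did. Aimp1 had 88.6 RPKM with Torin1 against 157 to 189 in the other replicate 2 libraries, Aimp2 had 40.0 against 60.6 to 70.0, and Eef1e1 had 70.2 against 95.6 to 114. The differences from Scram replicate 2 were -1.03, -0.999 and -0.70, so all 3 were past the 20% threshold. Their RNA-seq differences were 0.03, -0.43 and -0.17. Of the 8 enzymes of the complex 2 were lower by that much in Ribo-seq and 2 higher, so its members shared no direction. None of these passed the test without a block (limma, adjusted p = 0.891 for each scaffold gene).

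**Figure D5:**
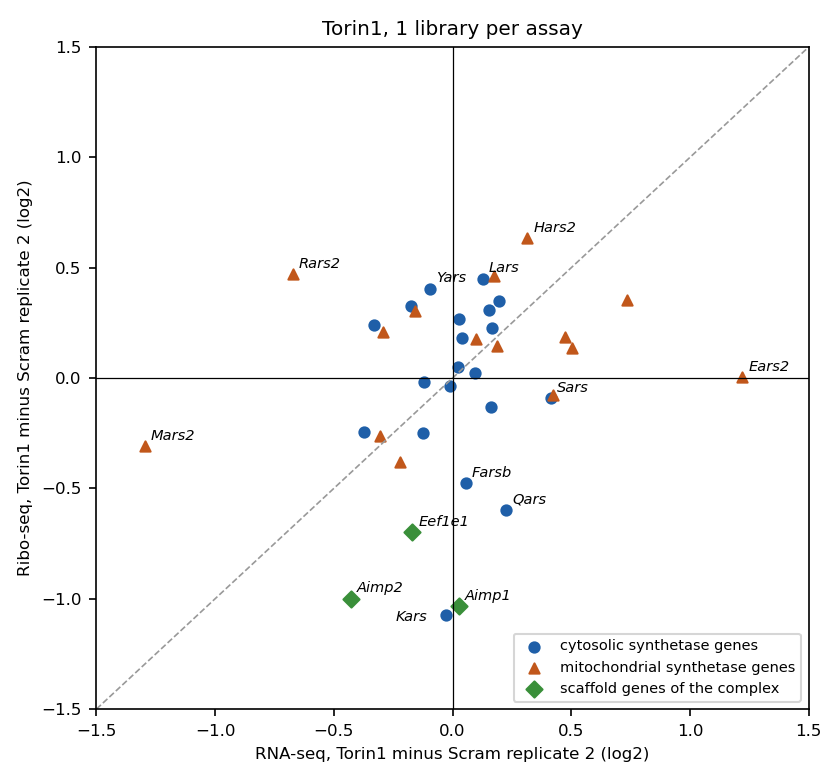
Difference of the Torin1 library from Scram replicate 2 (log2) in RNA-seq (x axis) and Ribo-seq (y axis) for the 35 genes, from sums over transcripts, and for the 3 scaffold genes. The dashed line marks equal change in both assays; Kars, Aimp1 and Aimp2 lie near -1 in Ribo-seq. Mars2, at the left, was not listed in Torin1 RNA-seq and is drawn at 0 RPKM.

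Among mitochondrial genes the largest Torin1 values in RNA-seq and TE rested on few RNA-seq reads. The Ribo-seq values rested on more, with 69 reads for Hars2 with Torin1 and 82 in Scram replicate 2, and 68 and 91 for Rars2. Hars2 differed by 0.63 in Ribo-seq (25.8 RPKM against 14.01 in Scram), but on the scale of the fit its 4.44 lay just below the 4.45 of METTL3 replicate 2. Rars2, the arginyl gene, differed by 0.46 (22.2 against 13.6 to 17.2). Rars2 had 3.58 RPKM and 8 reads in RNA-seq, against 6.90 RPKM and 49 reads in Scram replicate 2, which gave a TE difference of 1.12. Ears2, the glutamyl gene, had 10 RNA-seq reads with Torin1 and 12 in Scram replicate 2, at 4.08 and 1.54 RPKM, a difference of 1.18 in RNA-seq and -1.18 in TE. Pars2 differed by 0.71 in RNA-seq on 10 reads. Mars2 was not listed in Torin1 RNA-seq, where the files list a transcript from about 5 reads up, so no fold is given. Ears2 was likewise not listed in RNA-seq of ABCF1 replicate 2.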

How the data were processed

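The deposited files give RPKM per Ensembl transcript for 14 libraries (7 Ribo-seq and 7 RNA-seq), made by the authors with cutadapt and Bowtie on GRCm38, per the submitters' processing notes; versions and the use of strand are not stated. Of 22453 transcripts 22356 were matched to a gene, and for each gene the transcript with the highest mean RPKM was kept. Genes listed in at least 0.5 of an assay's libraries, with a mean of at least 1 RPKM, were scaled to the library median and taken as log2(RPKM + 1), which understates differences of low genes. The models were fitted with limma 3.58.1 in R 4.3.3 (trend, all groups in 1 fit, 3 residual degrees of freedom per assay and 6 for TE), with Benjamini-Hochberg adjustment over all genes and a threshold of 0.05. The scripts were tested on simulated data. Low RPKM values implied whole reads for 98.7% to 98.8% of Ribo-seq and 80.5% to 85.4% of RNA-seq values, from which depth was taken.

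Same-numbered libraries deviated together from their group means (RNA-seq r from 0.82 to 0.88, Ribo-seq r from 0.91 to 0.94), so the replicate block is given where it matters; the Torin1 library then takes the level of replicate 2. The genes named are, for each comparison, those past the test and the 3 cytosolic and 2 mitochondrial genes with the largest mean same-replicate difference among those listed in every library with 1 sign in both replicates. Of the other lists, the members past the test and the 2 with the largest such difference were named. Further genes were named after their values were seen. The members and lists were chosen with earlier results of these data known. Sums over transcripts together with the block were added after seeing the data. The promoter of 1 further gene is not reported here.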

Additional observations from a re-analysis of the deposited data

How the results depend on the processing

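The replicate block raised the genes called from 0 to 10 for Torin1 RNA-seq, 1 for METTL3 Ribo-seq, 122 for Torin1 Ribo-seq and 54 for Torin1 TE, with 0 of the 35 among them, and together with sums over transcripts, chosen after seeing the data, to 23, 1, 157 and 82. Torin1 TE calls were 25 with a pseudocount of 0.1 and 53 with no filter. The other counts of calls stayed at 0.

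The cytosolic median for Torin1 RNA-seq was -0.059 with the block, -0.051 with block and sums and -0.38 with no scaling, where the mitochondrial one was -0.34. For METTL3 Ribo-seq it was -0.022 with a pseudocount of 0.1, -0.016 with quantile normalization, -0.032 with no scaling, and -0.035 with sums, with or without the block. For ABCF1 Ribo-seq it was 0.093 with no scaling and 0.082 with quantile normalization. For METTL3 TE it was 0.047 with genes listed in every library, 0.041 with sums, with or without the block, and -0.012 with absent values as missing. With no scaling Torin1 TE medians were 1.14 (cytosolic) and 0.45 (mitochondrial). The METTL3 RNA-seq mitochondrial median was 0.26 with quantile normalization. No scaling shifted the median of all genes by -0.118 in ABCF1 RNA-seq, 0.147 in ABCF1 TE, and -0.392, 0.366 and 0.735 in Torin1 RNA-seq, Ribo-seq and TE.

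The fit without a block gave positive values for Torin1 Wars, Farsa, Kars and Qars, whose kept transcript was nearly absent from replicate 1. With the block they were -0.39 and -0.20 in RNA-seq for Wars and Farsa, -1.15 and -0.91 in Ribo-seq for Kars and Qars, and -0.95 for Kars TE. With sums they were -0.31, -0.072, -0.91, -0.59 and -0.87, and with sums and block -0.38, -0.34, -1.28, -0.73 and -1.13. With absent values as missing Kars was -1.08 in Ribo-seq and -3.66 in TE. Kars TE was -0.21 with a pseudocount of 5 and -0.14 with quantile normalization, and Qars TE was 0.019 with no scaling.

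Leaving out 1 replicate leaves 1 library in a group, assumed to vary like the others, and sets libraries of different sets against each other. Cytosolic medians then ran from -0.12 to 0.047 (METTL3 RNA-seq), -0.66 to -0.12 (ABCF1 RNA-seq), 0.033 to 0.21 (Torin1 RNA-seq), -0.45 to 0.46 (METTL3 Ribo-seq), -0.31 to 0.37 (ABCF1 Ribo-seq), 0.026 to 0.92 (Torin1 Ribo-seq), -0.31 to 0.38 (METTL3 TE) and -0.012 to 0.81 (ABCF1 TE). Mitochondrial medians ran from 0.014 to 0.31 (METTL3 RNA-seq), -0.046 to 0.52 (METTL3 Ribo-seq), 0.018 to 0.22 (METTL3 TE) and -0.091 to 0.30 (ABCF1 TE). In METTL3 knockdown Qars RNA-seq values ran from -2.19 to 1.79. The range for Ribo-seq was -3.01 to 1.92 for Qars, -3.89 to 2.92 for Sars and -0.59 to 0.017 for Farsb. Iars ran from -0.15 to 0.82 and Nars from -0.95 to 0.48 in TE. In ABCF1 knockdown Yars2 ran from -0.64 to 0.21 in RNA-seq, Aars from -0.32 to 0.90, Sars from -4.58 to 2.73 and Mars from -0.069 to 0.43 in Ribo-seq, and Vars2 from -1.13 to 0.23 in TE. With Torin1 Wars ran from -0.37 to 3.82 and Farsa from -0.33 to 4.57 in RNA-seq, Kars from -1.08 to 6.46 and Qars from -0.61 to 3.69 in Ribo-seq, and Kars from -1.04 to 1.05 in TE. The cause was not tested.

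Of the values under all alternatives 134 counts, 195 medians and 549 single-gene values kept their direction and side of the threshold or stayed within the spread, and 10 counts, 45 medians and 44 single-gene values did not. The 14 mitochondrial genes with 1 main transcript had a median of 22 RNA-seq reads per library.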

Other observations

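The 3 genes that make selenocysteinyl-tRNA from seryl-tRNA (Pstk, Sepsecs and Sephs2) were higher in both replicates of METTL3 knockdown in Ribo-seq, against 27.8% of genes. In RNA-seq Pstk was lower in both (-0.495 and -2.78), and Sepsecs and Sephs2 were higher in both. Pstk (0.73 and 0.66) and Sephs2 (0.49 and 0.20) were also higher in both replicates of ABCF1 knockdown in Ribo-seq, against 25.3% of genes. None passed the test.

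Of the 20 genes on the list of Atf4 and its targets that are no synthetases, 19 were tested in Ribo-seq with Torin1. Against Scram replicate 2, 9 were lower by at least 20% and 1 higher by at least 25%, where 27.1% of genes were lower and 25.0% higher. Slc7a5 had 89.5 RPKM with Torin1 and 188 in Scram replicate 2. Of the 11 cytosolic synthetase genes on the Atf4 list 0 were lower by that much and 2 higher. With 1 Torin1 library these values have no replicate check.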
